A study of Ophiorrhiza pumila with 6 samples.

Results

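The levels described here are those of control hairy roots of *Ophiorrhiza pumila*, a plant of the coffee family whose roots make the alkaloid camptothecin. Only the GUSi lines were used, 2 of the 6 RNA-seq samples of the series, GUSi-9 and GUSi-10. Each line carried an RNAi construct against the bacterial reporter beta-glucuronidase (GUS), a gene that the plant does not have, so both also hold the T-DNA of the Ri plasmid and the RNAi vector with its resistance genes. Each line is 1 transgenic clone with 1 library of 3-week-old culture, so clone and library cannot be told apart. The other 4 samples, lines with *OpERF1* or *OpERF2* silenced, were not compared. Contigs of a *de novo* transcriptome assembly were ranked by mean FPKM (fragments per kilobase of contig, scaled to the mapped fragments of the library) over both lines, and 29152 of 59855 contigs counted as annotated plant contigs, with a description or best database hit that names a plant product. With n = 2 lines no test is possible, so values are given per line and an order is called held only where both lines share it.

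Hairy roots grow out of plant tissue that *Agrobacterium rhizogenes* has infected: the bacterium moves T-DNA of its root-inducing (Ri) plasmid into the plant genome, and the *rol* genes on it drive root growth without added hormones. As roots, they take up water and minerals and build primary and secondary walls. In this species they also hold the pathway to camptothecin, in which plastid isoprenoids (the MEP pathway) feed the iridoid secologanin, tryptophan decarboxylase makes tryptamine, and strictosidine synthase joins these precursors.

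The designed PCR pairs for 4 genes of that pathway are printed because their contigs are described below. They were not matched to contigs here, and the letters are in lower case because no stretch of them is singled out.
OpTDC forward (tryptophan decarboxylase): gattggtcccgattttcctatg
OpTDC reverse: tcaatggcagcggttgaag
OpG10H forward (geraniol 10-hydroxylase): tgggatggccaaggaagtc
OpG10H reverse: ggaattgatcggctggagaa
OpSLS forward (secologanin synthase): ctggagttcttctcacttggacaa
OpSLS reverse: agcacgatcttgccattcg
OpSTR forward (strictosidine synthase): accatcctacggaccaaacg
OpSTR reverse: cgacggaagcgtaaagttcac

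The libraries held 12915474 (GUSi-9) and 13199946 (GUSi-10) expected counts. A contig was above 0 in both lines in 45886 cases and at 0 in both in 7235 cases, where the counts allow up to 3 reads per library (0.232 and 0.227 CPM, counts scaled to library size). At a mean of at least 1 FPKM stood 42575 contigs, 25346 of them annotated plant contigs, with a median of 5.49 FPKM. A mean of at least 100 FPKM was reached by 1244 contigs and a mean of at least 1000 FPKM by 25. Exact Poisson intervals (95%) are given for some values and cover counting error only.

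The transcript pool was spread over many contigs. The 10 most abundant contigs held 5.21% of the summed FPKM in GUSi-9 and 4.75% in GUSi-10, the top 100 held 13.95% and 13.5%, and 2085 and 2059 contigs were needed to reach 50 percent. Annotated plant contigs held 77.6% and 77.0% of the summed FPKM, and contigs with neither description nor hit 15.3% in each line, although the latter were 44.7% of all contigs.

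**Figure D1:**
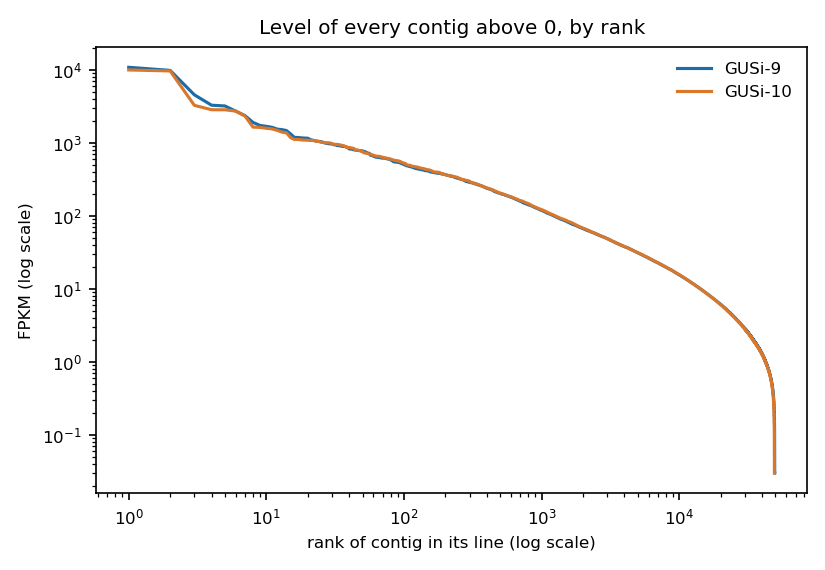
FPKM of every contig above 0 (log scale) against its rank within its line (log scale), 1 curve per line. The curves of GUSi-9 and GUSi-10 nearly coincide, and 1232 and 1257 contigs lie at 100 FPKM or above.

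The most abundant annotated transcript was a glutathione S-transferase, c30054_g1_i1, an enzyme family that joins glutathione to toxins and plant products. It stood at 10944 FPKM in GUSi-9 (interval 10885 to 11002) and 9755 FPKM in GUSi-10 (interval 9700.4 to 9810), and took 1.05% of all counts in GUSi-9 and 0.930% in GUSi-10. A contig of 6322 bp described only as a hypothetical protein (c31626_g1_i1) took 1.04% and 0.449% of the counts, at 1697 and 729 FPKM. In both lines the glutathione S-transferase lay far above the next annotated contig, by 2.38 times in GUSi-9 and 2.96 times in GUSi-10. That contig, c8155_g1_i1, is described as major allergen Pru ar 1, a pathogenesis-related protein of the PR-10 family, which binds small hydrophobic molecules. Its level was 4589 FPKM in GUSi-9 and 3291 FPKM in GUSi-10.

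A probable cinnamyl alcohol dehydrogenase 1-like contig (c9671_g1_i1), of a family that reduces cinnamaldehydes on the way to lignin, had the next highest mean with 3229.7 FPKM in GUSi-9 and 2750.3 FPKM in GUSi-10. A copper chaperone (c28936_g2_i1), which hands copper to its target proteins, had 2377 and 2861 FPKM, and a major intrinsic protein (c41884_g1_i1), of the aquaporin family of water channels, had 2741 and 2344 FPKM. The copper chaperone was lowest of these 3 in GUSi-9 and highest in GUSi-10, while the dehydrogenase stood above the water channel in both lines.

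Enzymes that remove peroxide followed. Ascorbate peroxidase (c41876_g1_i1) stood at 1921 and 1597 FPKM and catalase (c33357_g5_i1) at 1529 and 1089 FPKM, each higher in GUSi-9. S-adenosylmethionine synthase 2 (c23640_g1_i1), which makes the methyl donor of the cell, had 1555 and 1657 FPKM. A cytochrome P450 described as isoflavone 2'-hydroxylase-like (c382_g1_i1) had 1647 FPKM in GUSi-9 and 1122 FPKM in GUSi-10.

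Among the 30 highest annotated contigs were 4 of the MLP-like (major latex protein-like) type, relatives of PR-10 whose role in roots is less settled: c41976_g1_i1 with 1745 and 1565 FPKM, c42160_g1_i1 with 1486 and 1383 FPKM, c33770_g1_i1 with 1179 and 1188 FPKM, and c15321_g2_i1 with 1174 and 1054 FPKM. Tonoplast aquaporins, which let water cross the vacuole membrane, were next to equal in the lines: c18892_g1_i1 stood at 1111 and 1094 FPKM and c5234_g1_i1 at 923 and 939 FPKM. Metallothionein c22361_g1_i1, a cysteine-rich metal-binding protein, had 1057 and 1122 FPKM.

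The rest of the 30 were mostly housekeeping or signalling proteins. Ubiquitin (c29068_g1_i1, 1336 and 1641 FPKM), a ubiquitin-conjugating enzyme E2 (c27497_g2_i1, 1194 and 1098 FPKM), glyceraldehyde-3-phosphate dehydrogenase of glycolysis (c47377_g1_i1, 1166 and 1009 FPKM), elongation factor 1-alpha (c33045_g1_i3, 907 and 1064 FPKM) and histone H3 (c22759_g1_i1, 901 and 871 FPKM) belong there. A zinc finger protein (c28868_g1_i1) had 1019.6 and 1086 FPKM, and a CCR4-associated factor 1 homolog (c47489_g1_i1), a subunit of the complex that shortens poly(A) tails, had 888 and 1007 FPKM. A secretory peroxidase (c3794_g1_i1) had 797 and 1105 FPKM.

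Together the 30 contigs held 6.55% of the summed FPKM in GUSi-9 and 6.04% in GUSi-10. Of the 30 contigs, 0 differed 2-fold between the lines, against 14.2% of the 42575 contigs at 1 FPKM or above and 2.57% of the 1244 contigs at 100 FPKM or above. The largest ratio among the 30 was 1.47. Of their 435 pairs 351 had the same order in both lines, but of the 29 pairs of neighbours only 9 did. The 30th contig had a mean of 876 FPKM and the contig just outside 872 FPKM, so the edge of the set is not sharp, and the top 30 of GUSi-9 alone and of GUSi-10 alone shared 23 contigs.

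**Figure D2:**
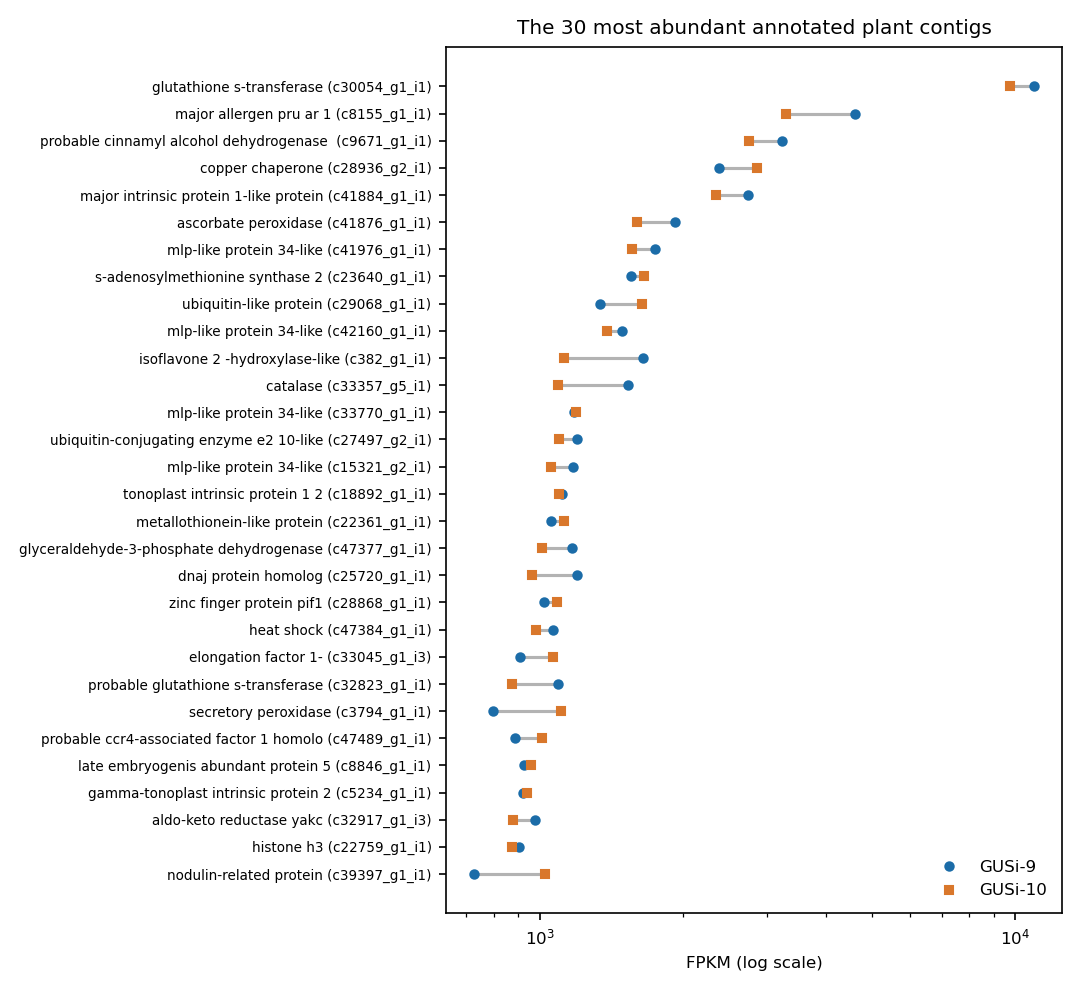
FPKM (log scale) of the 30 annotated plant contigs with the highest mean, 1 per assembly gene, with a circle for GUSi-9 and a square for GUSi-10. The glutathione S-transferase stands apart at 10944 and 9755 FPKM, and of the 29 pairs of neighbours only 9 keep their order in both lines.

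Several of the highest contigs had no name. The second highest contig of all, c23345_g1_i1 (473 bp, no description and no hit), had 9921 FPKM in GUSi-9 and 10058 FPKM in GUSi-10, below the glutathione S-transferase in the former line and above it in the latter. A second such contig, c32165_g3_i1 (539 bp), had 3308 and 2867 FPKM. A mean of at least 100 FPKM was reached by 122 contigs with no annotation, and their 10 highest (1 per assembly gene) were 375 to 1064 bp long.

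Families were then summed over lists of contigs drawn from descriptions and hits. Cytosolic ribosomal proteins, the protein part of the translating ribosome, were the largest of 66 lists with 4.09% of the summed FPKM in GUSi-9 and 3.99% in GUSi-10, from 219 contigs, and the median of their 202 contigs at 1 FPKM or above was 135.7 FPKM, against 5.49 for all contigs. No single contig led this list: the highest, a 60S protein L13 (c41914_g1_i1), had 589 and 581 FPKM, or 1.77% of the list. Translation factors added 1.19% and 1.17%, and ubiquitin with the proteasome, which mark and degrade proteins, 1.19% and 1.27%.

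Glutathione S-transferases came second with 1.73% and 1.54% of the summed FPKM, but 77.4% of that level lay in c30054_g1_i1 alone. The next members were c32823_g1_i1 at 1089 and 874 FPKM and a microsomal member, c21972_g1_i1, at 359 and 309 FPKM. The PR-10 and MLP-like list, which was put together after the values had been seen, had 1.53% and 1.23%, above ubiquitin with the proteasome in GUSi-9 and below it in GUSi-10. Of its 29 contigs 4 made up 73.0% of its level.

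Redox enzymes held 1.11% and 1.02%, with superoxide dismutase c44638_g1_i1 at 544 and 625 FPKM after ascorbate peroxidase and catalase. Class III peroxidases, secreted enzymes that stiffen walls and polymerise lignin, held 0.475% and 0.546%; behind the secretory peroxidase stood c26855_g1_i1 at 986 and 736 FPKM and c41920_g1_i1 at 415 and 557 FPKM. These peroxidases did not keep their order between the lines.

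Central metabolism was led by glycolysis (0.649% and 0.606%) and mitochondrial respiration (0.953% and 0.933%). Fructose-bisphosphate aldolase (c25114_g1_i1) had 790.2 and 725 FPKM, enolase (c33470_g3_i1) 606 and 595 FPKM, and cytochrome c1 of the respiratory chain (c33406_g2_i1) 726 and 657 FPKM. Of the 73 glycolytic contigs at 1 FPKM or above, whose median was 17.7 FPKM, 0 differed 2-fold, against 14.2% of all contigs and 1.72% of those at 10 to 100 FPKM. Alcohol dehydrogenase 1 (c32933_g1_i2), which regenerates NAD when oxygen is short, had 476 and 449 FPKM, and pyruvate decarboxylase (c25995_g1_i1) had 300.4 and 275 FPKM. Sucrose synthase, which splits sucrose for use, was present as c26218_g1_i1 at 419.7 and 378 FPKM and c28984_g1_i1 at 288 and 195 FPKM.

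Among the water and nutrient functions of a root, aquaporins and some enzymes of nitrogen assimilation had high contigs. The aquaporin list took 0.767% and 0.710% of the summed FPKM from 30 contigs, 42.2% of it in c41884_g1_i1. Nitrogen assimilation was led by glutamine synthetase (c39228_g1_i1), which fixes ammonium, at 618 and 679.98 FPKM, with nitrite reductase (c25575_g1_i1) at 179 and 187 FPKM and nitrate reductase (c12636_g1_i1) at 206 and 157 FPKM. By contrast the highest nitrate transporter contig (c25573_g1_i1) had only 63.2 and 47.0 FPKM. Over contigs at 1 FPKM or above, the median was 7.045 FPKM for nitrate and ammonium transporters and 4.4 FPKM for phosphate transporters. The sugar exporter SWEET11-like (c24839_g2_i1) stood at 286 and 370.2 FPKM and phosphate transporter 3,1 (c30626_g1_i1), of a mitochondrial family, at 199 and 203 FPKM.

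Pectinesterase c24022_g1_i1, which removes methyl groups from pectin, had 633 and 735 FPKM, and a xyloglucan endotransglucosylase/hydrolase (c31681_g1_i1), which cuts and rejoins wall xyloglucan, had 333 and 577 FPKM. A contig described as caffeic acid 3-O-methyltransferase 1-like (c31260_g2_i1) had 1044 and 627 FPKM. Cinnamate 4-hydroxylase (c8825_g1_i1), an early enzyme of lignin synthesis, had 353 and 384 FPKM, and caffeic acid O-methyltransferase (c8877_g1_i1) had 376 and 321 FPKM. The whole phenylpropanoid and lignin list held 1.08% and 0.967%, of which 35.9% was the cinnamyl alcohol dehydrogenase-like contig. Suberin and Casparian strip genes held 0.102% and 0.1199%.

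Specialised enzymes beyond the pathway contigs of the study were also abundant. Behind the isoflavone 2'-hydroxylase-like contig the list of cytochromes P450, a large family of oxidising enzymes, held c8804_g1_i1 (82A3-like) at 383 and 311 FPKM and c32840_g2_i1 (secologanin synthase-like, best hit CYP72A58) at 395 and 251 FPKM. Whether the latter acts in the camptothecin route was not tested. The pathway's secologanin synthase c41889_g1_i1, also a P450, stood above both at 622 and 571 FPKM. Of 253 P450 contigs at 1 FPKM or above 43 differed 2-fold, or 17.0% against 14.2% of all contigs at that level, and 30 of the 43 were higher in GUSi-9. Among the 2-oxoglutarate dioxygenases c47552_g1_i1, described as a homolog of the enzyme that forms ethylene, led with 809.9 and 717 FPKM. The UDP-glycosyltransferases, which add sugars to small molecules, were led by c18525_g2_i1 at 314 and 316 FPKM.

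DAHP synthase (c18912_g1_i1), the entry enzyme of the shikimate pathway, had 135 and 134 FPKM, the beta chain of tryptophan synthase (c22394_g1_i1) 128 and 119 FPKM, and a subunit of anthranilate synthase (c3730_g1_i1) 59.3 and 55.8 FPKM. In sterol synthesis, squalene synthase (c24517_g1_i1) had 123 and 122 FPKM and farnesyl diphosphate synthase (c45053_g1_i1) 120.3 and 112 FPKM.

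Transporters of small molecules followed. A MATE transporter, of a family that exports or stores plant products, was described as TRANSPARENT TESTA 12-like (c33790_g1_i1) and had 370.1 and 331 FPKM. The highest ABC transporters, pumps driven by ATP, were c29528_g2_i1 at 249 and 211 FPKM and c29528_g1_i1 at 197 and 187 FPKM, both described as ABCG36-like. Of the 211 ABC contigs at 1 FPKM or above, 20 were 2-fold higher in GUSi-10 and 6 in GUSi-9, together 12.3% against 14.2% of all contigs.

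Defence and stress lists had a few high contigs over a low median (6.30 FPKM for pathogenesis-related proteins and chitinases, 10.2 FPKM for LEA and dehydrin). A defensin-like protein (c3933_g1_i1), a small antimicrobial peptide, had 633 and 802 FPKM and a chitinase-like protein (c36808_g1_i1) 218 and 239 FPKM. The LEA5 contig c8846_g1_i1, of the late embryogenesis abundant type, had 924 and 959.7 FPKM, and a dehydrin (c3793_g1_i1) 373 and 536 FPKM. Cysteine protease c20399_g1_i1 had 775 and 642 FPKM and the cysteine proteinase inhibitor c36599_g1_i1 had 788 and 539 FPKM.

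Of the hormone lists, an Aux/IAA protein (c39302_g1_i1), a repressor of auxin response, had 324 and 471 FPKM and an auxin-repressed protein (c28988_g1_i1) 624 and 421 FPKM. Ethylene insensitive 3 (c22603_g2_i1), a factor of ethylene signalling, had 184 and 174 FPKM. An abscisic acid 8'-hydroxylase (c14384_g2_i1), which breaks down that hormone, had 135 and 243 FPKM. Cytokinin genes were lower, with the receptor histidine kinase 4-like c22650_g1_i1 at 80.3 and 79.7 FPKM. Calmodulin c8817_g1_i1, a calcium sensor, had 602 and 600.4 FPKM.

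**Figure D3:**
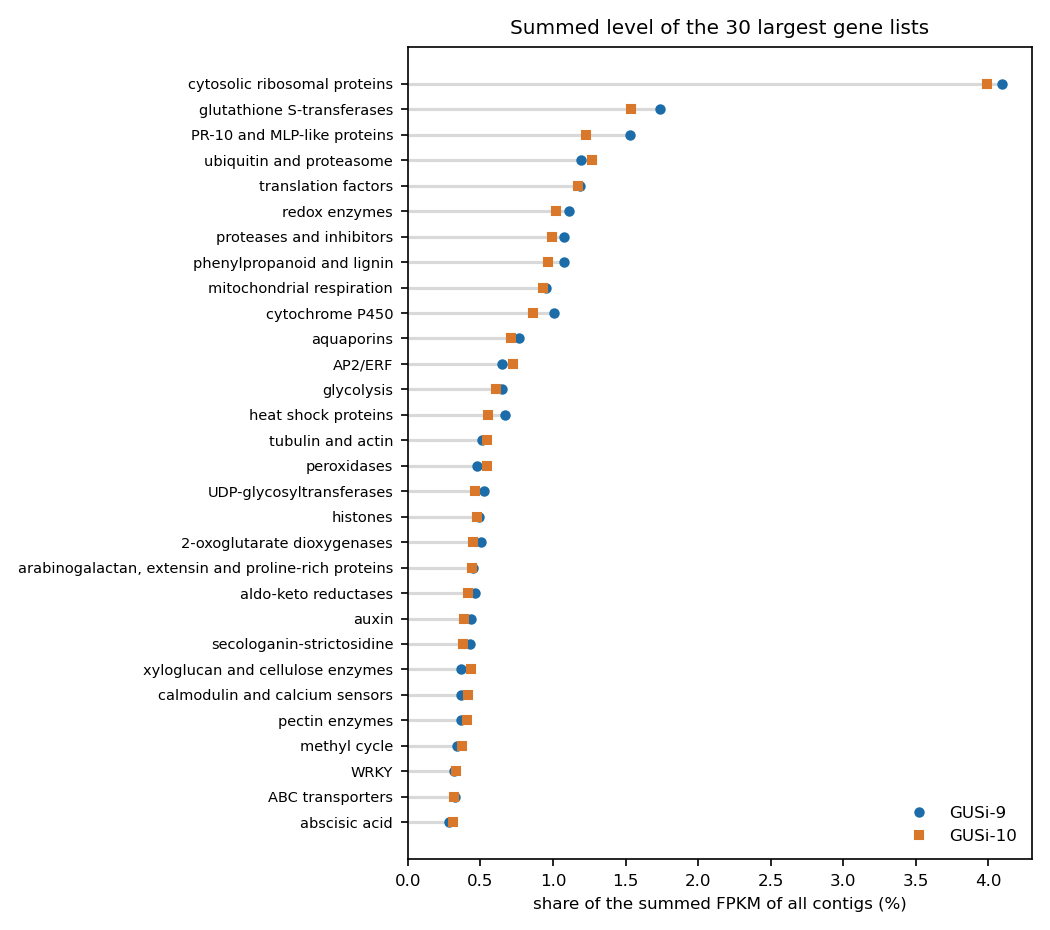
Share of the summed FPKM of all contigs (%) held by each of the 30 largest gene lists, with a circle for GUSi-9 and a square for GUSi-10. Cytosolic ribosomal proteins lead at 4.09% and 3.99%, and the other lists lie below 2 percent in both lines.

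GO terms, which class gene products by function, process and place, were attached to 24005 contigs. Among terms with at least 20 contigs at 1 FPKM or above, plasma membrane held the largest summed level, 10.7% in GUSi-9 and 10.6% in GUSi-10. It covered 3.03% of contigs at 1 FPKM or above. Plasmodesma (8.61% and 8.53%, from 1.79% of these contigs) and oxidation-reduction process (8.15% and 7.83%, from 4.29%) followed. Next came protein binding (7.43% and 7.41%, from 6.01%) and cytosol (7.12% and 7.14%, from 2.68%). A contig can carry many terms, so these shares overlap. The glutathione S-transferase contig carried many of them and made up 11.9% of plasma membrane, 25.5% of cell wall and 45.3% of response to oxidative stress.

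When that contig was left out, an alternative added after the data had been seen, 7 of the 10 largest terms stayed so. Response to oxidative stress fell to 1.54% and 1.56% from 2.86% and 2.74%. Protein binding fell to 6.17% and 6.29%, near its 6.01% share of contigs. By the median contig rather than the sum, the cytosolic small (189 FPKM) and large (177 FPKM) ribosomal subunits stood highest, followed by threonine-type endopeptidase activity, the proteasome core (86.6 FPKM), and mitochondrial respiratory chain complex I (72.7 FPKM).

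The alkaloid pathway was high at its end. Strictosidine synthase, which joins tryptamine and secologanin, led with c47430_g1_i1 at 659.9 FPKM in GUSi-9 and 662 FPKM in GUSi-10. Secologanin synthase (c41889_g1_i1), the P450 that opens the ring of loganin, had 622 and 571 FPKM, and tryptophan decarboxylase (c28648_g1_i1) had 619.7 and 459.5 FPKM. In both lines these 3 steps stood above the other 17 steps of the MEP and secologanin-strictosidine pathways, while the order of the decarboxylase and secologanin synthase was not held.

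Each of these steps rested mainly on 1 contig: the highest took 97.8% of strictosidine synthase, 95.9% of secologanin synthase and 93.3% of tryptophan decarboxylase. Other contigs of the same name were low, such as strictosidine synthase c34166_g1_i1 at 18.6 and 11.6 FPKM and decarboxylase c28893_g1_i1 at 9.51 and 7.97 FPKM. The step also holds c32159_g1_i1 of 4686 bp, which is described as a WD repeat-containing protein and had 31.6 and 28.6 FPKM.

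In the iridoid part, isopentenyl diphosphate isomerase (c26317_g1_i1), which balances the isoprenoid units, had 314 and 216 FPKM. The oxidoreductase 10-hydroxygeraniol oxidoreductase (10-HGO, c29140_g1_i1) had 199 and 187 FPKM, iridoid oxidase (IO, c39235_g1_i1) 171 and 153 FPKM, geraniol 10-hydroxylase (G10H, c28312_g1_i1) 143 and 124 FPKM, iridoid synthase (IS, c42337_g1_i1) 141 and 154 FPKM, and loganic acid methyltransferase (LAMT, c5842_g1_i1) 172 and 149 FPKM. Among the IO, G10H, IS and LAMT contigs IS was lowest in GUSi-9 and highest in GUSi-10, and IO and LAMT also changed places, while 10-HGO stood above all of them in both lines.

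Lowest of the secologanin-strictosidine steps were the early terpene steps. The 3 contigs of geranyl diphosphate synthase (GPPS), isoforms of 1 assembly gene, summed to 25.6 and 25.0 FPKM, and geraniol synthase (GES, c36701_g1_i1), which makes geraniol, had 37.3 and 34.1 FPKM. GPPS was the lowest step in both lines. The 5 contigs of 7-deoxyloganetic acid glucosyltransferase (7-DLGT) lay between 10.2 and 30.7 FPKM. Those of 7-deoxyloganic acid hydroxylase (7-DLH) fell apart into 3 at 53.6 to 68.6 FPKM, each 661 to 699 bp long, and 2 isoforms of c4068_g1 at 1.43 to 4.98 FPKM; where contigs are pieces of 1 messenger, their sum counts it more than once.

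The MEP pathway, which makes isoprenoid units in plastids, held 0.151% of the summed FPKM in GUSi-9 and 0.122% in GUSi-10 from 12 contigs. Its first enzyme, 1-deoxyxylulose 5-phosphate synthase (DXS, c29996_g1_i1), had 233 and 142 FPKM, the reductoisomerase DXR (c33486_g7_i1) 238 and 189 FPKM, and the last enzyme HDR (c17511_g1_i1) 215 and 186 FPKM. The middle enzymes CMS (c23841_g1_i1) at 33.9 and 39.0 FPKM and CMK (c28782_g1_i1) at 45.6 and 41.6 FPKM were the lowest. Both other DXR contigs (c33486_g6_i1 and c33486_g6_i2, 6150 and 6173 bp, at 36.7 to 42.8 FPKM) are described as a cyclin-dependent kinase, and without them the step still stood at the level of c33486_g7_i1. Of the 20 steps 17 were higher in GUSi-9, by 1.01 times (strictosidine synthase) to 1.45 times (DXS). Over all contigs at 1 FPKM or above the median log2 ratio of GUSi-10 over GUSi-9 was -0.007. Of 190 pairs of steps 178 had the same order in both lines.

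**Figure D4:**
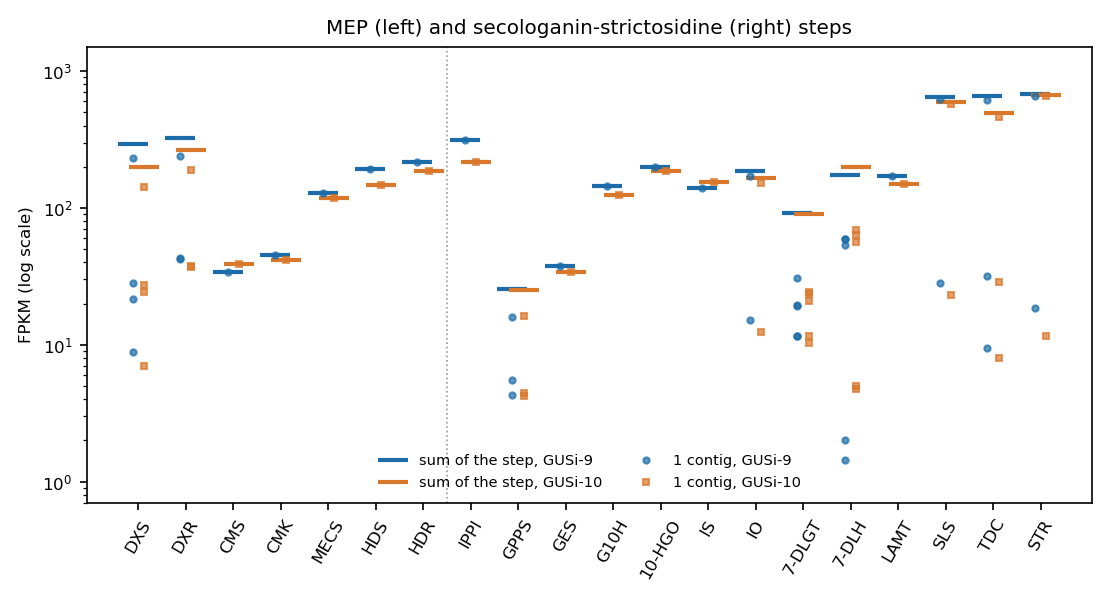
FPKM (log scale) of each step of the MEP pathway and of the secologanin-strictosidine pathway in the order of the reactions; horizontal dashes are the sum over the contigs of a step, circles (GUSi-9) and squares (GUSi-10) single contigs. SLS, TDC and STR stand highest at 496 to 678 FPKM per step, and GPPS lowest at 25.0 and 25.6 FPKM.

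Jasmonate synthesis, the route to a defence hormone, was moderate, at 0.135% and 0.149% over 16 contigs, with a median of 49.9 FPKM. Of these 16, 0 differed 2-fold, where 1.72% of all contigs at 10 to 100 FPKM and 14.2% of all at 1 FPKM or above did. The 16 include c31060_g2_i2, c31060_g2_i4 and c31060_g2_i5 (4216 to 4757 bp, 13.5 to 17 FPKM), which are described as a receptor-like protein kinase. They are isoforms of the same assembly gene as the 3-ketoacyl-CoA thiolase contig c31060_g2_i1 and were counted in the share and the median. Lipoxygenase 2 (c30417_g1_i1), the entry enzyme, had 181 and 242 FPKM and 12-oxophytodienoate reductase OPR3 (c5147_g1_i1) 107 and 136 FPKM, while allene oxide synthase (AOS, c25608_g1_i1) stood at 26.04 and 26.2 FPKM. A jasmonate ZIM-domain protein, JAZ1 (c25603_g2_i1), a repressor of jasmonate response, had 523 and 584 FPKM and held 62.8% of its list of 13 contigs.

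Of the 9 transcription factor families listed, the highest in sum was AP2/ERF, plant regulators named for APETALA2 and the ethylene response factors. Its 124 contigs held 0.651% and 0.723% of the summed FPKM, more than WRKY (0.318% and 0.333%), homeobox (0.276% and 0.268%), bHLH (0.241% and 0.247%), MYB (0.230% and 0.224%), NAC (0.106% and 0.112%), GRAS (0.0987% and 0.0970%), bZIP (0.0668% and 0.0676%) or MADS (0.0591% and 0.0754%). Of the 20 most abundant factor contigs over these 9 families, 15 were AP2/ERF, 4 WRKY and 1 homeobox. The 15 include c22168_g1_i1 and c22168_g1_i2, isoforms of 1 assembly gene. Of all contigs at 1 FPKM or above, AP2/ERF made up 0.263%, WRKY 0.134% and homeobox 0.310%. By the median contig at 1 FPKM or above AP2/ERF did not lead. It had 10.5 FPKM, below WRKY at 15.1 FPKM and bZIP at 13.1 FPKM and above the remaining families.

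The highest factor of those families was ethylene response factor 12 (c23769_g1_i1) at 762 and 808 FPKM, followed by ethylene response factor 3 (c22619_g1_i1) at 547 and 708 FPKM. Both were higher in GUSi-10, and their order was held. The zinc finger protein c28868_g1_i1, with a DNA-binding protein as best hit and outside those families, stood above both at 1019.6 and 1086 FPKM. ERF017-like (c13203_g1_i1) had 394 and 448 FPKM and a WRKY factor of the double-domain type (c8820_g1_i1) had 361 and 433 FPKM. In the families below, the highest bHLH contig was bHLH113-like (c39451_g1_i1) at 77.5 and 89.7 FPKM, the highest MYB contig c47547_g1_i1 at 85.2 and 107 FPKM, and the highest NAC contig c29784_g1_i1 at 106 and 86.2 FPKM. By mean FPKM *OpERF1* (c15284_g1_i1) was 11th of the AP2/ERF contigs, at 206 FPKM in GUSi-9 and 134 FPKM in GUSi-10. This place was not held. The AP2/ERF contig c34378_g1_i1 stood below it in GUSi-9 at 120 FPKM and above it in GUSi-10 at 196 FPKM. *OpERF2* (c17706_g2_i1) was 49th by mean. It had 15.2 FPKM (interval 11.7 to 19.5) from 63 counts in GUSi-9 and 8.33 FPKM (interval 5.80 to 11.6) from 35 counts in GUSi-10.

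Markers of the labelled tissue were checked in the descriptions. Casparian strip membrane proteins, which mark the root endodermis, were found as 3 contigs that summed to 83.6 and 166 FPKM, SHORT-ROOT to 28.9 and 24.0 FPKM, and a xylem cysteine proteinase (c6743_g1_i1) stood at 86.9 and 123 FPKM. SCARECROW summed to 1.54 and 2.04 FPKM and WOX5, of the root stem cell centre, to 5.08 and 3.10 FPKM, whereas 12 contigs of the stem cell regulators PLETHORA and AINTEGUMENTA-like summed to 145 and 121 FPKM. No description named MYB36, RSL or RHD6, COBRA-like 9, VND, CDKB or AGAMOUS, so these were not read. In whole roots fewer cells of a type and less RNA per cell cannot be told apart.

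Of the green tissue markers, RuBisCO small subunit and activase were near 0, while photosystem and chlorophyll-binding contigs were low but present. RuBisCO small subunit was at 0.6 and 0 FPKM over 2 contigs, RuBisCO activase at 3.04 and 4.30 FPKM over 7, and 38 chlorophyll a/b-binding contigs summed to 50.04 and 47.1 FPKM, with 16 of them at 1 FPKM or above and 19 at 0 in both lines. The 57 photosystem contigs summed to 117 and 112 FPKM, with 17 at 1 FPKM or above, and the highest were c36533_g1_i1 at 31.5 and 27.9 FPKM and c31256_g1_i1 at 27.8 and 21.3 FPKM. SEPALLATA was at 0, and oleosins of seed oil bodies summed to 10.3 and 6.96 FPKM. In the other seed list (2S albumin, vicilin and legumin) 6 contigs summed to 96.8 and 171 FPKM, led by c23943_g1_i1 at 33.9 and 76.0 FPKM, whose description names a superfamily that also holds lipid-transfer proteins. The 13 contigs with a best hit in *Agrobacterium* or *Rhizobium* outside the T-DNA were all at 0 in both lines.

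The T-DNA itself was plainly transcribed. The 14 contigs counted as T-DNA or vector all reached 1 FPKM, and they held 0.191% of the summed FPKM in GUSi-9 and 0.413% in GUSi-10. The agropine synthesis conjugase (c31834_g1_i1), which makes an opine that the bacterium feeds on, had 469 and 484 FPKM, and mannopine synthase (c25644_g1_i1) 145 and 136 FPKM. Among the root-inducing genes *rolC* (c36680_g1_i1) had 265 and 948 FPKM and the reading frame *orf13* (c23560_g1_i1) 177 and 851 FPKM, while *rolB* (c30113_g1_i1) had 38.3 and 58.6 FPKM.

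Of these 14 contigs 5 were 2-fold higher in GUSi-10 and 0 in GUSi-9, where 6.32% and 7.83% of all contigs at 1 FPKM or above were. Of the resistance genes of the vector, neomycin phosphotransferase (c3966_g1_i1) had 77.1 and 330.4 FPKM, and hygromycin phosphotransferase (c27279_g2_i1) 148 and 187 FPKM. GUS (c26211_g1_i1), whose coding region served as the target sequence of the control construct, had 5.56 FPKM in GUSi-9 and 24.9 FPKM in GUSi-10. The plant has no GUS gene, so this is not the level of a silenced plant transcript. A further contig described as inclusion body matrix protein (c32005_g1_i1), counted neither as plant nor as T-DNA, had 235 and 1413 FPKM. Another, described as ornithine cyclodeaminase (c20102_g1_i1) and counted as plant, had 6.06 and 34.9 FPKM. Its best hit was from *Catharanthus roseus*, like those of the *rolB* and *orf13* contigs but also that of the glutathione S-transferase c30054_g1_i1. The species of the hit therefore does not tell T-DNA from plant, and whether c20102_g1_i1 is T-DNA was not tested.

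Between the lines the bulk of the profile was close. The median absolute log2 ratio was 0.24 over all contigs at 1 FPKM or above, 0.34 at 1 to 10 FPKM, 0.14 at 10 to 100 FPKM and 0.12 at 100 to 1000 FPKM. For the 25 contigs at 1000 FPKM or above it was 0.21, and their median log2 ratio of GUSi-10 over GUSi-9 was -0.155. A 2-fold difference was found in 20.4% of contigs at 1 to 10 FPKM and in 1.72% at 10 to 100 FPKM. At 100 to 1000 FPKM it was 2.54%, and at 1000 FPKM or above 4%, which is 1 contig. As a description over 42575 contigs that share the same libraries, Pearson's r of log2(FPKM + 1) was 0.94 and Spearman's rho 0.91.

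Of 1035 annotated plant contigs at a mean of at least 100 FPKM, 15 differed 2-fold, 11 of them higher in GUSi-9; those named here were chosen after their values were seen. Metallothionein MT-3-like (c33778_g1_i1) had 504 FPKM in GUSi-9 and 88.0 FPKM in GUSi-10. An 18.2 kDa class I heat shock protein (c20110_g1_i1), a chaperone that holds unfolding proteins, had 389 and 110.4 FPKM. The largest gap above 100 FPKM on the other side was RSI-1 protein (c48219_g1_i1), known in tomato as a transcript of lateral root initiation, with 38.3 and 175 FPKM.

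In heat shock proteins and expansins every 2-fold difference had the same direction. Of 86 heat shock contigs at 1 FPKM or above 12 differed 2-fold and all 12 were higher in GUSi-9. They were 13.95% of the list against 7.83% of all contigs. Among them were HSP70 contigs c23170_g1_i1 (55.6 and 5.30 FPKM) and c23170_g3_i1 (46.0 and 6.44 FPKM), which share an assembly number with c23170_g2_i1. Where such contigs are pieces of 1 messenger, the 12 count it more than once. Of the 12, c29034_g1_i1 had only 6 and 1 counts and c20021_g1_i2 only 4 and 2. The constitutive HSP80-like chaperone c44644_g1_i1 had 415 and 475 FPKM. Of 22 expansins, which loosen walls in growing cells, 7 differed 2-fold and all 7 were higher in GUSi-10, or 31.8% of the list against 6.32% of all contigs, led by c28277_g1_i1 at 78.9 and 204 FPKM. Of 103 xyloglucan and cellulose contigs at 1 FPKM or above, 12 were 2-fold higher in GUSi-10 and 1 in GUSi-9, where 6.32% and 7.83% of all contigs were. These lists were picked out after their values were seen, and with 1 library a line the differences are between libraries, with no replicate check.

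**Figure D5:**
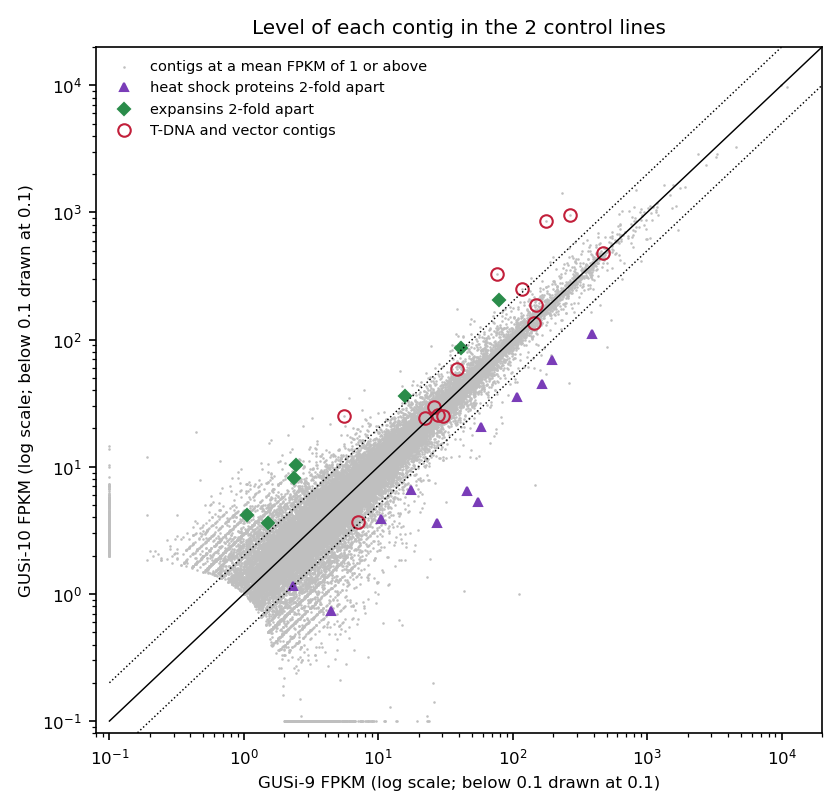
FPKM in GUSi-9 (x, log scale) against GUSi-10 (y, log scale) for contigs at a mean of 1 FPKM or above; the solid line is equality and the dotted lines are 2-fold, with triangles for the 12 heat shock and diamonds for the 7 expansin contigs that differ 2-fold and open circles for T-DNA and vector contigs. The triangles lie below the band, the diamonds above it, and 5 of the 14 circles above it.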

How the data were processed

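RNA of 3-week-old hairy roots was prepared by the authors with a strand-specific kit and sequenced as paired ends on an Illumina HiSeq instrument. Clean reads were aligned to a *de novo* assembly; the submitters' processing notes name Bowtie2 2.0, RSEM and DESeq. What version of RSEM ran, and with what strand setting, is not given in the sources used here. Per contig and library, the authors deposited an expected count (all whole here), an FPKM, a TPM and a percent of the assembly gene's transcripts, beside contig lengths. A deposited annotation table repeats the FPKM, which matched the library tables with a largest difference of 0, and gives the Blast2GO description, best hit and GO terms; 0 columns used here lacked a sample.

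FPKM was used as deposited. An annotated plant contig has a description or hit that names a product and is no T-DNA, vector, bacterial, fungal, viral, animal or ribosomal RNA entry. Named were the 30 highest of these (1 per assembly gene), up to 4 of each of 66 lists, the study's pathway contigs, *OpERF1*, *OpERF2*, T-DNA and vector contigs, and the 10 highest without annotation. A few further contigs were named after their values had been seen. The members and lists were chosen with earlier results of these data known; several list patterns were amended, 8 lists were added and storage and LEA proteins were split after members had been seen. The contigs of lists can overlap, and contigs of 1 assembly gene share reads.

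No test was run, since 2 lines with 1 library each allow none. A 2-fold difference is an absolute log2 ratio of at least 1 at a mean FPKM of at least 1. Counting intervals are exact Poisson (95%). The summaries were also run on simulated data, but no outcome of that run is given here. It is therefore not used as a check of the levels, the 2-fold differences or the orders between the lines. Alternatives were TPM, counts scaled to library size without length correction, each line left out, contigs of at least 500 bp, T-DNA left out, sums per assembly gene, log2(FPKM + 1) means, descriptions alone, and other detection and fold limits. Python 3.11.15 with numpy 2.4.6, pandas 2.3.3, scipy 1.17.1 and matplotlib 3.10.9 was used. Columns of the silenced lines were not used here.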

Additional observations from a re-analysis of the deposited data

How the results depend on the processing

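Of the 30 most abundant annotated plant contigs, 18 stayed among the 30 highest when counts scaled to library size, without length correction, replaced FPKM, and 25 to 27 when 1 line was left out; 27 to 30 stayed under the other alternatives. The top 100 contigs held 13.6% of the mean FPKM, 14.1% with contigs of at least 500 bp only, 14.2% with FPKM summed per assembly gene, and 13.5% to 13.95% with 1 line left out. Of the 10 largest lists 8 to 10 and of the 10 largest GO terms 7 to 10 stayed so under the alternatives run on them, including 1 added after seeing the data that left out the most abundant annotated contig. Contigs with a mean above 0 numbered 52620, against 22432 at a mean of at least 5 FPKM, 14295 at 10 FPKM and 30826 with at least 10 counts in each library. The 6025 contigs that differed 2-fold became 731 at a mean of at least 5 FPKM, 257 at 10 FPKM (fewer contigs counted) and 3310 with a pseudocount of 1, which shrinks ratios of low contigs. No paired analysis was possible because 1 group was used. Of contigs at 1 to 10 FPKM 20.4% differed 2-fold, against 1.72% at 10 to 100 FPKM; the part of counting error in this was not tested.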
